A study of Mus musculus with 9 samples.

Results

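The genes described here are 44 genes of endoplasmic reticulum (ER) stress and antibody secretion, among 22174 genes in the table from which they were taken by name. The list was set by gene name and function, with earlier results of these data known. The genes were divided into 6 roles, namely 6 sensors and transcription factors of the unfolded protein response, 4 targets of the stress response, 9 chaperones, 6 oxidative folding enzymes, 9 genes of ER-associated degradation, and 10 genes of the translocon and signal peptidase. All 44 passed the filter on low counts that left 11165 genes for testing.

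Each of 9 mice labelled C57/BL6NTac gave 1 RNA-sequencing library from B cells of the spleen. There were 3 groups of 3 mice, and all pairs of groups were compared. Eµ-MTCP1 mice (Z2551, Z2606 and Z2641, all of founder Z36) express a human MTCP1 cDNA from a VH promoter with the Eµ enhancer of the heavy chain locus, which restricts it to B cells. One founder stands for the transgene here. Eµ-TCL1 mice (B4376, B4437 and C1594) carry the hTCL1 transgene under Eµ control and are an established model of chronic lymphocytic leukemia (CLL). Wildtype littermates without transgene (Z2754, Z2755 and Z2785) were the controls. For B cells isolated in this way, the study's methods state that mice of both models had met criteria for euthanasia, without naming these libraries. The ages of the single mice are not given in the sources used here. B cells were obtained with a pan B cell isolation kit, so that each library is a bulk sample, and fewer cells of a type cannot be told apart from less RNA per cell.

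Secretory proteins, antibodies among them, enter the ER through the Sec61 translocon, lose their signal peptide, and are folded by chaperones and disulfide isomerases. Proteins that fail to fold are returned to the cytosol and degraded. The unfolded protein response adjusts this capacity through 3 sensors, IRE1 (Ern1), PERK (Eif2ak3) and ATF6, of which IRE1 splices the mRNA of the transcription factor XBP1. Plasma cells depend on XBP1 for their secretory apparatus, and CLL cells receive chronic signals through a B-cell receptor that is itself an ER client.

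One classical DNA motif of ER chaperone promoters is the ER stress element, written CCAAT, 9 bases of any kind, and CCACG. It was searched on both strands of the RefSeq promoters of genome build GRCm38.p6, each of which holds 250 bases before and 50 bases after a gene's start. Of the 44 genes, 36 matched a promoter. Not matched were Atf6, Derl1, Hyou1, Manf, Mzb1, Sec61a1, Spcs3 and Ssr2. The element was present in 8 of the 36 promoters (22.2%), those of Calr, Canx, Creld2, Derl3, Hsp90b1, Hspa5, Pdia6 and Syvn1, and in 0.119% of all 32851 promoters. The promoters below belong to Creld2, which rose in both models, to Hspa5, the best known target of the element, which did not pass the test in either model, and to the degradation partners Syvn1 and Sel1l. Capitals mark the ER stress element, and the strand of each gene is the strand printed, 5′ to 3′. They lie at chr15:88819396-88819695 (+), chr2:34771840-34772139 (+), chr19:6046326-6046625 (+) and chr12:91849108-91849407 (-).
Creld2: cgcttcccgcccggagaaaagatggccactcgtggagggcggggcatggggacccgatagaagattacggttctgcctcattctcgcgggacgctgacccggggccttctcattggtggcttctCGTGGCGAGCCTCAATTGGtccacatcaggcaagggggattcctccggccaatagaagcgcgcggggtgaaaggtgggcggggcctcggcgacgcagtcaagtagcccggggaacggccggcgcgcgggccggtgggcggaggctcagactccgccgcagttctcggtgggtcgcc
Hspa5: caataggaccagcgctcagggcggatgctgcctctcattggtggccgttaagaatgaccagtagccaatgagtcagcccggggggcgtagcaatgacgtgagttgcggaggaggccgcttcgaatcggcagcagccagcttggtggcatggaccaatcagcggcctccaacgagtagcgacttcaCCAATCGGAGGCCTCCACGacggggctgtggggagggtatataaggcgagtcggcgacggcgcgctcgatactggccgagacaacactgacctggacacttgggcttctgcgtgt
Syvn1: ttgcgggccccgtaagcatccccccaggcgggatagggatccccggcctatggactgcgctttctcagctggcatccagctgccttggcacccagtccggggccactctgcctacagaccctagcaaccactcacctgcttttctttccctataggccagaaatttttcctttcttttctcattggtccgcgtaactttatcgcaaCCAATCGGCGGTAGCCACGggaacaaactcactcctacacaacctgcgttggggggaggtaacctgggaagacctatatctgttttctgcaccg
Sel1l: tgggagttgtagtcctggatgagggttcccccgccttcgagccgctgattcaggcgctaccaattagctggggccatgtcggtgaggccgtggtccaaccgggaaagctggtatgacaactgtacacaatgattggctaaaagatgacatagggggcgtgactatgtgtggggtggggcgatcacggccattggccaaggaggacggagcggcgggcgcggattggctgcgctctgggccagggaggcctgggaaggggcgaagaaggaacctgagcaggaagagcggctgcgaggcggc

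The element begins 126 bases before the start in Creld2, where it reads on the opposite strand, 65 bases before it in Hspa5 and 44 bases before it in Syvn1. In the Sel1l window these letters were not found. Other stress motifs were searched in the same way. The ER stress element II (ATTGG, 1 base, CCACG) was found in Herpud1 alone of the 36 and in 0.0365% of all promoters, and the unfolded protein response element TGACGTGG in none of the 36 and in 0.676% of all. These motifs share the letters CCACG or their complement, so that a stretch can count for more than 1 of them. The composite C/EBP-ATF core, spelled TGATG, 1 base and AA, was found in Asns, Chac1, Herpud1 and Trib3, and in 3.97% of all promoters. A match of letters is a description and not a measured binding site.

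The transgenes followed the labels. On the log2 scale of the authors' normalized values, human TCL1A lay between 14.9 and 15.6 in Eµ-TCL1 mice and between 6.04 and 6.96 in the other 6 mice, and human MTCP1 between 11.1 and 12.3 in Eµ-MTCP1 mice and between 5.85 and 6.19 in the others. Between 6447542 and 8033303 estimated reads per library were summed per gene, and levels are given as CPM, the reads of a gene scaled to a common library total after TMM normalization. A count of 3 reads corresponds to 0.326 to 0.495 CPM. The B cell markers Cd79a, Ms4a1 and Pax5 were detected in every mouse, at 2429 to 4084, 367 to 782 and 28.6 to 58.5 CPM over the 9 mice. These ranges pool the 3 groups, so they show detection alone and not that the groups had alike levels. The 11 T and NK cell markers summed to 17.5 to 47.2 CPM in Eµ-MTCP1, 11.8 to 160 in Eµ-TCL1 and 23.7 to 53.6 in wildtype mice, with Cd4 at 0 in 4 mice and Cd8a at 0 in 5. The 9 myeloid markers summed to 864 to 2230, 367 to 1554 and 948 to 4033 CPM in the same order, and were highest in wildtype Z2755, the only library on another lane, where Mpo alone reached 2324 CPM. Their part in the results below was not tested.

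Comparison of Eµ-MTCP1 with wildtype mice asked which of the 44 genes differ in the leukemic B cells. In all, 6 rose and none fell by edgeR's quasi-likelihood test, called where the p adjusted after Benjamini-Hochberg over all genes was under 0.05. The 6 were the chaperones Creld2 and Mzb1, the degradation genes Sel1l and Derl1, the sensor Atf6 and the translocon-associated Ssr2. None of the 44 had an unadjusted p under 0.05 in the lower direction, and DESeq2 called none lower. The share called was 13.6% of the 44 genes, against 9.48% of all 11165 genes in either direction and 5.49% in the higher direction. The log2 fold change is the log2 of the ratio of fitted levels, and its median was 0.50 over the 44 genes and -0.02 over all genes. All 3 Eµ-MTCP1 mice lay above all 3 wildtype mice for 19 of the 44 genes (43.2%), compared with 14.7% of all genes.

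The same comparison for Eµ-TCL1 mice, against the same 3 wildtype mice, called Creld2, Sel1l and Derl1. All 3 rose, and none of the 44 genes fell. This share of 6.82% was near that of all genes, 9.20% in either direction and 5.07% in the higher direction, and is thus not a result about the 44 genes as a group. Their median log2 fold change was 0.38, against -0.01 over all genes. In 11 of 44 genes (25%) every Eµ-TCL1 mouse exceeded every wildtype mouse, compared with 16.6% of all genes. Log2 fold changes were above 0 in 38 of the 44 genes in Eµ-MTCP1 and in 36 of 44 in Eµ-TCL1 mice, and with library size alone in 32 and 34. Because both comparisons rest on the same wildtype libraries, their values are set side by side and not correlated.

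**Figure D1:**
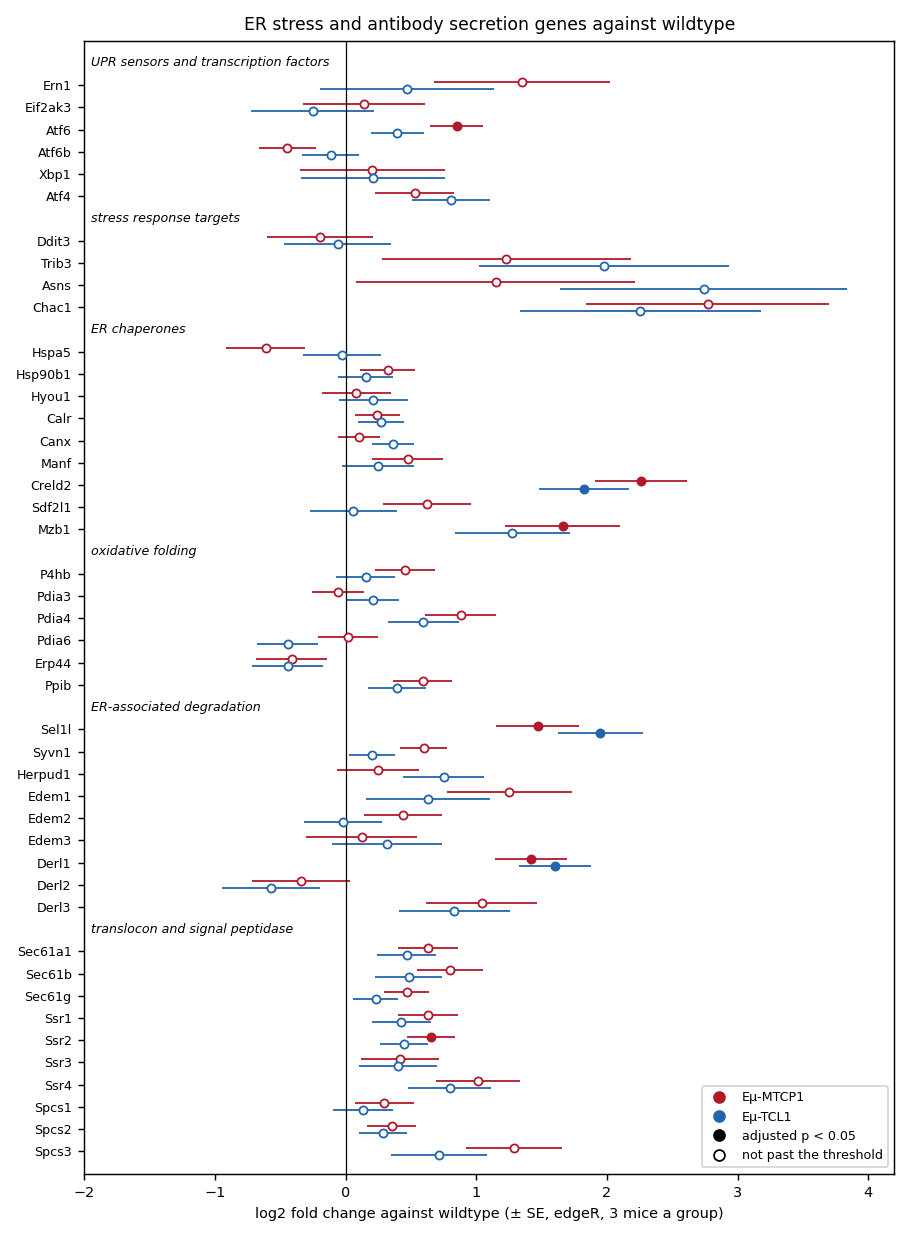
Log2 fold change against wildtype (x axis, log2 scale) of each of the 44 genes (y axis), grouped by role. Points are edgeR estimates with bars of 1 SE, red for Eµ-MTCP1 and blue for Eµ-TCL1, and filled points passed an adjusted p of 0.05. Creld2, Sel1l and Derl1 are filled in both colours, and all 10 translocon and signal peptidase genes lie to the right of 0.

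Creld2, an ER-resident disulfide isomerase induced by ER stress and listed here with the chaperones, had the largest fold change of the called genes in Eµ-MTCP1 mice. It measured 633, 488 and 459 CPM in Eµ-MTCP1 mice Z2551, Z2606 and Z2641. In Eµ-TCL1 mice B4376, B4437 and C1594 it measured 515, 256 and 399 CPM. Wildtype mice Z2754, Z2755 and Z2785 had 63.9, 113 and 153 CPM. No transgenic mouse overlapped with a wildtype mouse. The increase was 4.79-fold in Eµ-MTCP1 (log2 fold change 2.26 ± 0.35 SE, edgeR adjusted p = 0.0031) and 3.55-fold in Eµ-TCL1 mice (1.83 ± 0.35, edgeR adjusted p = 0.0086).

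Derl1, a component of the channel through which misfolded proteins leave the ER, measured 167, 179 and 91.8 CPM in Eµ-MTCP1 mice, in the order of mice given above. Eµ-TCL1 mice had 149, 132 and 217 CPM, and wildtype mice 56.5, 51.8 and 55.3 CPM. The wildtype values lay close together and below every transgenic mouse. The log2 fold change was 1.42 ± 0.28 in Eµ-MTCP1 (edgeR adjusted p = 0.0098) and 1.60 ± 0.28 in Eµ-TCL1 mice (edgeR adjusted p = 0.0054).

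Sel1l, the scaffold of the HRD1 ubiquitin ligase complex that passes misfolded proteins to degradation, measured 271, 330 and 170 CPM in Eµ-MTCP1 mice. Eµ-TCL1 mice had 217, 385 and 472 CPM. Wildtype mice had 80.3, 90.0 and 108 CPM. Again the groups did not overlap with wildtype, and the highest value was that of Eµ-TCL1 mouse C1594. Sel1l rose 2.77-fold in Eµ-MTCP1 (log2 fold change 1.47 ± 0.32, edgeR adjusted p = 0.0175) and 3.86-fold in Eµ-TCL1 mice (1.95 ± 0.32, edgeR adjusted p = 0.0044). Creld2 and Derl1 passed the test in all 17 alternative settings in both models, and Sel1l in all 17 in Eµ-TCL1 but in 13 of 17 in Eµ-MTCP1 mice. It lost its call there without Z2551, Z2606, Z2754 or Z2755, with edgeR adjusted p-values of 0.050 to 0.086.

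Mzb1, a chaperone of marginal zone B and B1 cells that assists assembly of IgM, measured 1788, 983 and 580 CPM in Eµ-MTCP1 mice. Wildtype mice had 279, 305 and 477 CPM. The groups did not overlap, but Z2641 lay close to the highest wildtype mouse. The increase was 3.16-fold (log2 fold change 1.66 ± 0.44, edgeR adjusted p = 0.042). Eµ-TCL1 mice had 890, 486 and 1191 CPM, also all above wildtype, with a log2 fold change of 1.28 ± 0.44 that did not pass (edgeR adjusted p = 0.10). The call in Eµ-MTCP1 mice was kept in 9 of 17 alternatives. It was lost without Z2551, Z2606, B4376, Z2754, Z2755 or Z2785, with edgeR adjusted p-values of 0.056 to 0.16 and log2 fold changes of 1.15 to 1.93.

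Atf6, the sensor that is cleaved in the Golgi to release a transcription factor, measured 58.9, 73.3 and 54.3 CPM in Eµ-MTCP1 mice. Wildtype mice had 35.9, 33.3 and 34.3 CPM. All 3 Eµ-MTCP1 mice exceeded wildtype, by 1.80-fold (log2 fold change 0.85 ± 0.20, edgeR adjusted p = 0.026). The call was lost with library size alone and without Z2551, Z2606 or any one wildtype mouse (edgeR adjusted p = 0.064 to 0.11). Eµ-TCL1 mice had 50.5, 35.4 and 50.6 CPM, of which B4437 lay within the wildtype range, and the log2 fold change was 0.40 ± 0.20 (edgeR adjusted p = 0.26). Ssr2, a subunit of the translocon-associated protein complex, measured 128, 98.7 and 98.6 CPM in Eµ-MTCP1 mice, whereas Eµ-TCL1 mice had 88.1, 89.4 and 104 CPM and wildtype mice 62.3, 79.1 and 65.0 CPM. Neither model overlapped with wildtype. Its call in Eµ-MTCP1 mice was at the threshold (log2 fold change 0.66 ± 0.18, edgeR adjusted p = 0.04996) and was kept in 3 of 17 alternatives. It was lost on leaving out any one of the 9 mice (edgeR adjusted p = 0.062 to 0.18), and in Eµ-TCL1 mice it did not pass (0.45 ± 0.18, edgeR adjusted p = 0.16).

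**Figure D2:**
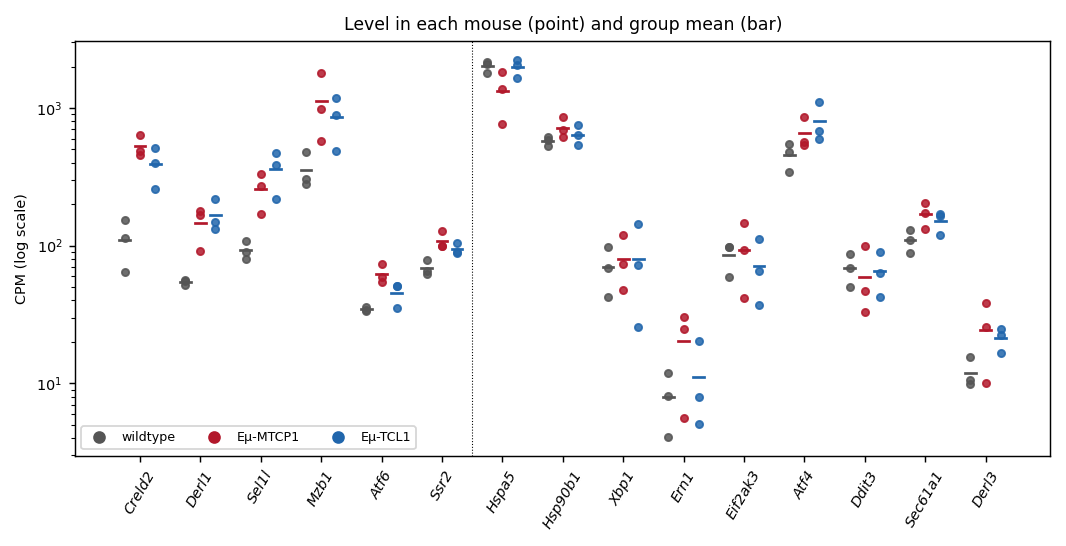
Level in CPM on a log axis (y) of 15 genes (x), with 1 point per mouse and a bar at the mean of 3 mice, in grey for wildtype, red for Eµ-MTCP1 and blue for Eµ-TCL1. The 6 genes left of the dotted line passed the test in at least 1 model, and for these every Eµ-MTCP1 point lies above the 3 grey points. Right of it the groups of Xbp1, Eif2ak3 and Ddit3 cover one another.

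The number of calls in Eµ-MTCP1 mice depended on single libraries. Of the 44 genes, 2 were called without Z2551, 2 without Z2606, 9 without Z2641, 3 without wildtype Z2754, 2 without Z2755 and 3 without Z2785. The share of all genes called moved as well, to 5.22, 8.23, 7.78, 4.59, 4.98 and 6.88% in that order. DESeq2 called 13 of the 44 (14.7% of all genes), and scaling by library size alone, which moved the median log2 fold change of all genes to -0.26, called 3. Under that scaling 10% of all genes were called and 3.5% called higher, so the split of the background turned towards lower calls while no member was called lower. In Eµ-TCL1 mice the count was 3 without any one of the 9 mice, 3 with library size alone (9.31% of all genes called, 3.99% higher) and 4 with DESeq2, which added Mzb1. With 1 mouse left out, 4.52 to 10.8% of all genes were called, while DESeq2 called 15.2% of all genes and 8.28% of all genes higher, so that its share of members was near the background.

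The remaining sensors and transcription factors did not pass in either model. Xbp1, the transcription factor required for plasma cell secretion, measured 73.5, 119 and 47.6 CPM in Eµ-MTCP1 mice. Values in Eµ-TCL1 mice were 144, 25.4 and 72.0 CPM, and in wildtype mice 42.4, 69.3 and 97.1 CPM. The 3 groups overlapped, and the highest and the lowest of all 9 values were both from Eµ-TCL1 mice. Its log2 fold change was 0.21 ± 0.55 in Eµ-MTCP1 (edgeR adjusted p = 0.84) and 0.21 ± 0.55 in Eµ-TCL1 mice (edgeR adjusted p = 0.85), with 95% intervals of -1.02 to 1.43 and -1.01 to 1.43. The direction turned in both models when wildtype Z2754 was left out, to -0.07 and -0.05. It also turned in Eµ-MTCP1 without Z2606 (-0.23) and in Eµ-TCL1 without B4376 (-0.52). Spliced and unspliced Xbp1 were not told apart.

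Ern1, the kinase and nuclease that splices Xbp1, measured 30.4, 24.9 and 5.62 CPM in Eµ-MTCP1 mice, whereas Eµ-TCL1 mice had 7.88, 5.03 and 20.2 CPM and wildtype mice 4.09, 8.03 and 11.8 CPM. Z2551, Z2606 and C1594 stood above all wildtype mice, and the other transgenic mice lay within their range. Log2 fold changes were 1.35 ± 0.67 and 0.47 ± 0.67 (edgeR adjusted p = 0.24 and 0.71), the latter turning to -0.30 without C1594. Eif2ak3, the kinase that attenuates translation, measured 92.7, 147 and 41.8 CPM in Eµ-MTCP1 mice. In Eµ-TCL1 mice the values were 65.8, 36.8 and 112 CPM, and in wildtype mice 97.8, 98.2 and 58.8 CPM. These groups overlapped throughout, with log2 fold changes of 0.14 ± 0.47 and -0.25 ± 0.47 (edgeR adjusted p = 0.88 and 0.78). Atf6b, the paralog of Atf6, had log2 fold changes of -0.45 ± 0.22 and -0.11 ± 0.22 (edgeR adjusted p = 0.24 and 0.79).

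Atf4, the transcription factor translated when PERK and its sister kinases are active, measured 540, 862 and 571 CPM in Eµ-MTCP1 mice, whereas Eµ-TCL1 mice had 595, 686 and 1114 CPM and wildtype mice 544, 344 and 481 CPM. All Eµ-TCL1 mice lay above wildtype, with a log2 fold change of 0.81 ± 0.30 that did not pass (edgeR adjusted p = 0.13), against 0.53 ± 0.30 in Eµ-MTCP1 mice (edgeR adjusted p = 0.30). Ddit3, which encodes the pro-apoptotic factor CHOP, measured 33.1, 99.2 and 46.4 CPM in Eµ-MTCP1 mice. Values in Eµ-TCL1 mice were 42.3, 63.6 and 90.6 CPM, and in wildtype mice 68.3, 50.2 and 86.9 CPM. It had log2 fold changes of -0.20 ± 0.41 and -0.06 ± 0.41 (edgeR adjusted p = 0.80 and 0.95).

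The other stress targets were low and uneven. Asns, asparagine synthetase, measured 40.5, 4.40 and 5.62 CPM in Eµ-MTCP1 mice, whereas Eµ-TCL1 mice had 33.5, 3.32 and 115 CPM and wildtype mice 6.69, 6.84 and 9.22 CPM. Thus Z2551, B4376 and C1594 were above, and the other 3 transgenic mice below, every wildtype mouse. Chac1, a glutathione-degrading enzyme downstream of ATF4, was at 3.94, 10.2 and 2.15 CPM in Eµ-MTCP1 mice. In Eµ-TCL1 mice the values were 4.56, 0.614 and 6.30 CPM, and in wildtype mice 0.867, 0.326 and 1.21 CPM, of which Z2755 was at 3 reads. Its log2 fold change of 2.77 ± 0.93 in Eµ-MTCP1 mice, the largest of the 44 genes there, did not pass in edgeR (adjusted p = 0.095), whereas DESeq2 called it. Trib3, a pseudokinase induced by CHOP, ranged from 0.651 to 10.8 CPM, with its highest value in C1594, and rests on 172 reads over all 9 libraries.

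Among the chaperones, Hspa5, the abundant chaperone BiP that also holds the unfolded protein response sensors inactive, did not pass the test in either model. It measured 1364, 1838 and 765 CPM in Eµ-MTCP1 mice, whereas Eµ-TCL1 mice had 2038, 1660 and 2249 CPM and wildtype mice 2164, 2098 and 1805 CPM. Eµ-MTCP1 values reached from well below wildtype into its range, and Eµ-TCL1 values lay on both sides of it. The log2 fold change was -0.61 ± 0.30 in Eµ-MTCP1 (edgeR adjusted p = 0.24, 95% interval -1.28 to 0.05) and -0.03 ± 0.30 in Eµ-TCL1 mice (edgeR adjusted p = 0.97, -0.69 to 0.63). These values depended on how length was handled. With length offsets they were -0.46 and -0.29. In TPM, which scales reads by transcript length, Hspa5 was at 782, 1018 and 737 in Eµ-MTCP1 mice. Eµ-TCL1 mice had 673, 876 and 1483 TPM and wildtype mice 1083, 2042 and 1376 TPM, so that no Eµ-MTCP1 mouse reached wildtype. Hsp90b1, the chaperone GRP94, measured 859, 694 and 612 CPM in Eµ-MTCP1 mice. Values in Eµ-TCL1 mice were 752, 540 and 632 CPM, and in wildtype mice 617, 529 and 585 CPM, with log2 fold changes of 0.32 ± 0.21 and 0.15 ± 0.21 (edgeR adjusted p = 0.37 and 0.70).

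In Eµ-MTCP1 and Eµ-TCL1 mice 9.48 and 9.20% of all genes were called in either direction, and 5.49 and 5.07% higher. Of the 8 genes with an ER stress element near their start, Creld2 alone passed in edgeR on the reads used throughout, a count near this background. Syvn1, the ubiquitin ligase HRD1, did not pass there (log2 fold change 0.60 ± 0.18 in Eµ-MTCP1, edgeR adjusted p = 0.061), but it was called in 3 of 17 alternatives in Eµ-MTCP1 mice, with DESeq2 and in edgeR with the authors' gene counts and the standard reference. Derl3, a Derlin of secretory cells, did not pass in either tool, though it passed in Eµ-MTCP1 mice with the authors' gene counts and without Z2641 (log2 fold change 1.38 in both, edgeR adjusted p = 0.049 and 0.024). Derl3 measured 38.1, 25.4 and 10.1 CPM in Eµ-MTCP1 mice, whereas Eµ-TCL1 mice had 16.6, 24.7 and 22.3 CPM and wildtype mice 10.5, 9.88 and 15.4 CPM (log2 fold changes 1.04 ± 0.43 and 0.83 ± 0.42, edgeR adjusted p = 0.16 and 0.26). Z2641 alone lay within the wildtype range. The lectin chaperones Calr and Canx had log2 fold changes of 0.24 and 0.10 in Eµ-MTCP1 and 0.27 and 0.36 in Eµ-TCL1 mice. For Pdia6 they were 0.02 and -0.44. In Eµ-MTCP1 mice Canx was at -0.14 with library size alone, -0.03 with the authors' gene counts and -0.025 with the standard reference, and Pdia6 at -0.22 with library size alone, so that neither had a settled direction there.

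The other chaperones Hyou1, Manf and Sdf2l1 had log2 fold changes of 0.08, 0.48 and 0.62 in Eµ-MTCP1 and 0.21, 0.25 and 0.06 in Eµ-TCL1 mice, and none passed. With library size alone Hyou1 turned to -0.14 in Eµ-MTCP1 and Sdf2l1 to -0.08 in Eµ-TCL1 mice. None of the 6 oxidative folding enzymes passed in edgeR with all 9 mice in either model. An unadjusted p under 0.05 was found for 2 of them in Eµ-MTCP1 and for 0 in Eµ-TCL1 mice, compared with 2788 and 2800 of all 11165 genes. Neither count is a result about these 6 as a group. Pdia4 was called in Eµ-MTCP1 mice by DESeq2 and by edgeR without Z2641 (log2 fold change 1.03, edgeR adjusted p = 0.011). Log2 fold changes of the 6 ranged from -0.41 to 0.88 and from -0.44 to 0.59, the highest in both models being that of Pdia4, a disulfide isomerase of the BiP complex (0.88 ± 0.27 and 0.59 ± 0.27). Erp44, which retrieves unassembled IgM to the ER, had -0.41 in Eµ-MTCP1 and -0.44 in Eµ-TCL1 mice, but -0.04 and -0.07 without wildtype Z2754, which had 140 CPM of it compared with 84.8 and 61.6 CPM in the other wildtype mice. In the degradation group, the mannosidase-like lectin gene Edem1 had a log2 fold change of 1.25 ± 0.48 in Eµ-MTCP1 mice, all 3 of which lay above wildtype (edgeR adjusted p = 0.14, called by DESeq2), and 0.63 ± 0.47 in Eµ-TCL1 mice. Its paralogs Edem2 and Edem3 had 0.44 and 0.13 in Eµ-MTCP1 and -0.02 and 0.32 in Eµ-TCL1. Derl2 was on the other side of 0 from its paralog Derl1, at -0.34 and -0.57, but these values rested on wildtype Z2754, which had 33.5 CPM of Derl2 compared with 13.7 and 14.2 CPM in the other wildtype mice. Without Z2754 they were 0.20 and -0.03, and Derl2 was also above 0 in Eµ-MTCP1 mice with the authors' gene counts and with the standard reference. Z2754 had the highest share of mitochondrial reads, 5.99% against 1.62 to 3.88% in the other mice, whose part in this was not tested. Edem2 in Eµ-TCL1 mice was above 0 with the authors' gene counts and with the standard reference. Edem1 turned to -0.09 in Eµ-TCL1 mice without B4376, and Edem3 to -0.11 in Eµ-MTCP1 mice with library size alone. Derl2 held 23.8% of its reads on the standard reference. Herpud1, which ties ER stress to degradation, had 0.25 and 0.75.

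The 10 translocon and signal peptidase genes all had log2 fold changes above 0 in both models, also with library size alone, compared with 48.6 and 49.3% of all genes, from 0.30 to 1.29 in Eµ-MTCP1 and from 0.13 to 0.80 in Eµ-TCL1 mice. The lowest, that of Spcs1 in Eµ-TCL1 mice, turned to -0.05 without B4376 and to -0.04 without Z2755. With the authors' gene counts and the standard reference, Ssr1 was at 0.16 and 0.13 in Eµ-MTCP1 and at 0.045 and 0.032 in Eµ-TCL1 mice. Ssr3 was at 0.149 and 0.115 in Eµ-MTCP1 and at 0.143 and 0.131 in Eµ-TCL1 mice under these settings. The reads used for Ssr1, Ssr3 and Spcs3 were 27.4, 19.9 and 7.96% of those on the standard reference. Ssr2 in Eµ-MTCP1 mice was the single call of edgeR, and DESeq2 called Sec61b, Spcs3 and Ssr4 besides. Under other settings edgeR also called Spcs3, with the authors' gene counts, with the standard reference and without Z2641, as well as Ssr4 without Z2641 and Ssr1 without Z2754. Sec61a1, the pore-forming subunit, measured 205, 172 and 133 CPM in Eµ-MTCP1 mice. In Eµ-TCL1 mice the values were 164, 120 and 171 CPM, and in wildtype mice 89.1, 110 and 130 CPM. The lowest Eµ-MTCP1 mouse lay just above the highest wildtype mouse, and B4437 fell within the wildtype range. The log2 fold changes of 0.63 ± 0.23 and 0.47 ± 0.23 did not pass (edgeR adjusted p = 0.12 and 0.24). Of the 10 genes, 7 had no overlap between Eµ-MTCP1 and wildtype mice and 2, Ssr2 and the signal peptidase subunit Spcs2, none between Eµ-TCL1 and wildtype. These are 70 and 20% of the 10, against 14.7 and 16.6% of all genes, so that the count in Eµ-TCL1 mice was near the background. In the direct comparison of the models all 10 had lower fitted levels in Eµ-TCL1 mice, with a median log2 difference of -0.21, but 8 of 10 with library size alone or the standard reference, and none of these differences passed.

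The 2 models were then compared directly. None of the 44 genes was called by edgeR or by DESeq2, where 0.0448% of all genes were called by edgeR. An unadjusted p under 0.05 in edgeR was found for 717 of the 11165 genes. Of the 44, it was found for 2, Atf6 and Syvn1, a count not above that background. Both were lower in Eµ-TCL1 mice, with log2 differences of -0.45 ± 0.20 and -0.39 ± 0.18 (edgeR adjusted p = 0.77 for each). The 95% interval of the difference, Eµ-TCL1 minus Eµ-MTCP1 on the log2 scale, was -1.18 to 0.31 for Creld2, -0.21 to 1.17 for Sel1l, -0.41 to 0.78 for Derl1 and -1.34 to 0.57 for Mzb1. These intervals leave room for differences of more than 1 log2 unit in Creld2, Sel1l and Mzb1, so the data do not show that the models are alike.

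Mice within a model differed widely. Relative to the wildtype mean of log2(CPM + 1), the median of the 44 genes was 0.68, 0.57 and 0.09 in Eµ-MTCP1 mice Z2551, Z2606 and Z2641, and 0.37, 0.02 and 0.54 in Eµ-TCL1 mice B4376, B4437 and C1594. Over all tested genes these medians lay between -0.05 and 0.00. In Z2551, Z2606, B4376 and C1594, 39 of the 44 genes were above the wildtype mean, compared with 27 in Z2641 and 24 in B4437. Single wildtype mice had 19 to 30 genes above their own mean. Hence 1 mouse of each model had a median near 0, although Creld2, Sel1l and Derl1 were above all wildtype values in these mice too.

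**Figure D3:**
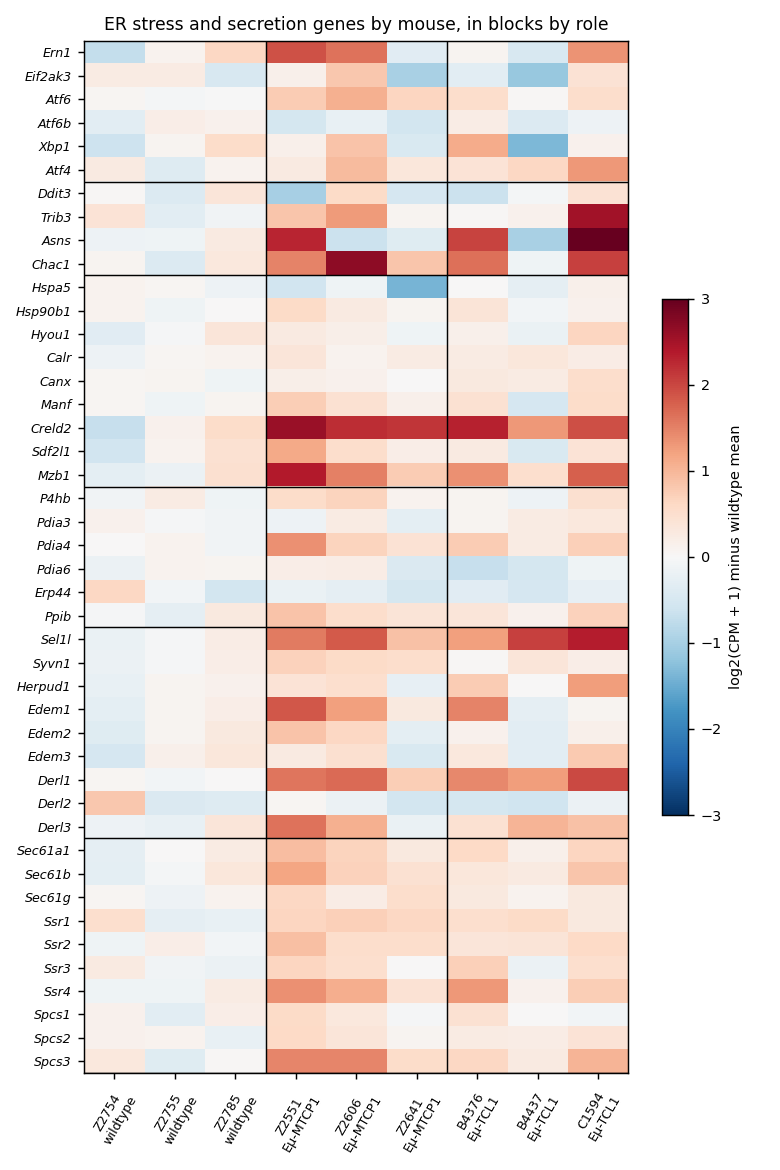
Log2(CPM + 1) minus the mean of the 3 wildtype mice (colour, red above and blue below) for the 44 genes (rows, in blocks by role) in each mouse (columns, 3 wildtype, 3 Eµ-MTCP1, 3 Eµ-TCL1). Creld2, Sel1l and Derl1 are red in all 6 transgenic mice, and 39 of the 44 rows lie above 0 in Z2551, Z2606, B4376 and C1594, compared with 27 in Z2641 and 24 in B4437.

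A measure of antibody secretion that the choice of genes did not use is the form of the IgM heavy chain mRNA. Ighm-201 (4 exons, chr12:113420741-113422730, minus strand, GRCm38) ends with the secreted tail, and Ighm-202 (6 exons, chr12:113418558-113422730) continues into the membrane exons. The secreted form took 70.7, 81.1 and 50.4% of the reads on this pair in Eµ-MTCP1 mice. Eµ-TCL1 mice had 82.6, 27.8 and 63.4%, and wildtype mice 58.0, 59.3 and 72.1%. Z2641 and B4437 were thus the lowest of all 9. The 3 groups overlapped in this share. Salmon assigned reads of shared exons between both forms, and on the standard reference the shares were 29.9 to 83.3%.

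Of the 44 genes, Xbp1 had the highest correlation with this share. Both measures come from the same libraries, and the reads used for Xbp1 were 23.3% of its reads on the standard reference. After the values had been seen, log2(CPM + 1) of each of the 11165 genes was related to the share over 9 mice. For Xbp1, Pearson's r was 0.959 (exact permutation p = 6.34e-05 over all 362880 pairings, n = 9) and Spearman's rho 0.983 (exact permutation p = 4.96e-05). This was the fourth highest r of all genes tested, rank 4 of 11165, after Sdc1, Arhgef3 and Cdk10. After Benjamini-Hochberg adjustment over all genes the exact permutation p was 0.236 for r and 0.264 for rho, so that neither Xbp1 nor any other gene passed. Without B4376 and B4437, the 2 mice farthest from the median of Xbp1 and also of the share, r was 0.903 (n = 7). In the 8 libraries of 1 lane it was 0.963. In the 6 transgenic mice it was 0.986 (exact permutation p = 0.00139, the smallest that 6 mice allow). Adjusted over all genes, that exact permutation p was 0.808 and did not pass. B4437 had the lowest and B4376 the highest value of both measures, and both are Eµ-TCL1 mice.

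Other genes of the 44 were less closely related to the share. The next were Manf with r = 0.768 and Edem1 with r = 0.701 over the same 9 mice. The coefficient was above 0 in 39 of 44 genes (88.6%), with a median of 0.403, compared with 51.0% and 0.00871 over all genes, and was at its lowest -0.17. Of 9 plasma cell genes, none passed after adjustment over all genes, with r from 0.249 for Tent5c to 0.968. Sdc1, which encodes the plasma cell surface protein CD138, had the highest r of all genes (0.968, exact permutation p adjusted over all genes 0.138), Jchain, the joining chain of secreted IgM, had 0.915 (adjusted 0.625), and Prdm1 had 0.397. Jchain measured 836, 2608 and 247 CPM in Eµ-MTCP1 mice, whereas Eµ-TCL1 mice had 1711, 31.6 and 167 CPM and wildtype mice 740, 680 and 1158 CPM. Whether few cells with high Xbp1 or many with little gave these levels cannot be told apart in bulk RNA.

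**Figure D4:**
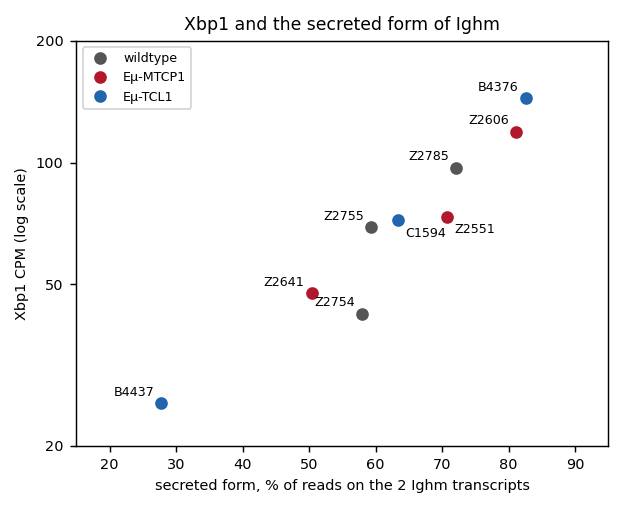
Xbp1 level in CPM on a log axis (y) against the secreted form in percent of the reads on the Ighm-201 and Ighm-202 transcripts (x), 1 point per mouse, coloured by group as labelled. Values run from 27.8% and 25.4 CPM in B4437 to 82.6% and 144 CPM in B4376, with wildtype mice between them.

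Other genes of these pathways were examined in the same fit, where 5.49 and 5.07% of all genes rose in Eµ-MTCP1 and Eµ-TCL1 mice. An unadjusted p under 0.05 was found there for 2788 and 2800 of the 11165 genes, in the same order. Among 22 further folding and degradation genes 1 rose in Eµ-MTCP1 mice, Ero1lb, the B cell oxidase that recharges disulfide isomerases (log2 fold change 1.14 ± 0.30, edgeR adjusted p = 0.037), where DESeq2 also called Txndc5 (1.26 ± 0.35, edgeR adjusted p = 0.051), and none in Eµ-TCL1 mice, where edgeR gave an unadjusted p under 0.05 for 3 genes and DESeq2 called 0. Their medians were 0.07 and -0.02. Of 31 targeting, glycosylation and export genes 29 were tested. In Eµ-MTCP1 mice 3 rose, namely the oligosaccharyltransferase subunit Rpn1 (0.80 ± 0.19), the COPII coat subunit Sec13 (0.73 ± 0.16) and the KDEL receptor Kdelr2 (0.89 ± 0.23). In Eµ-TCL1 mice Sec13 (0.80 ± 0.16) and the translocating chain-associated Tram2 (2.39 ± 0.64) rose. None of them fell, and the medians were 0.20 and 0.23.

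Of 28 further genes of the integrated stress response, the ATF4 branch, 23 were tested, and 4 rose and none fell in each model (17.4% of those tested, against 5.49 and 5.07% of all genes called higher). Among the called genes, the largest changes in Eµ-MTCP1 mice were those of Mthfd2 of mitochondrial folate metabolism (1.45 ± 0.35), the amino acid transporter Slc7a5 (1.41 ± 0.33) and Phgdh, the first enzyme of serine synthesis (1.13 ± 0.24). In Eµ-TCL1 mice they were those of Mthfd2 (1.69 ± 0.35), Phgdh (1.49 ± 0.24) and the alanyl-tRNA synthetase Aars (1.09 ± 0.28). The median was 0.09 in Eµ-MTCP1 and 0.54 in Eµ-TCL1 mice. Phgdh measured 587, 503 and 559 CPM in Eµ-MTCP1 mice. Values in Eµ-TCL1 mice were 599, 579 and 940 CPM, and in wildtype mice 199, 284 and 273 CPM, without overlap.

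Of 9 plasma cell genes, Prdm1, which encodes the regulator Blimp-1, rose in both models (log2 fold change 2.11 ± 0.49 and 1.83 ± 0.48, edgeR adjusted p = 0.023 and 0.040), and Tent5c rose in Eµ-TCL1 mice (1.73 ± 0.41). DESeq2 called Tent5c higher in Eµ-MTCP1 mice as well. Prdm1 measured 65.8, 123 and 28.6 CPM in Eµ-MTCP1 mice, whereas Eµ-TCL1 mice had 63.5, 41.1 and 74.1 CPM and wildtype mice 12.1, 13.8 and 24.5 CPM. The summed level of the 9 genes was 524 to 3279, 363 to 2260 and 958 to 1516 CPM and overlapped between groups. Among markers of other cells and states, the lysosomal Cd68 rose in both models (2.06 ± 0.32 and 1.91 ± 0.32), while Lyz2 and Csf1r did not. Of 8 proliferation genes Mki67 rose in Eµ-MTCP1 mice (1.73 ± 0.46), with a median log2 fold change of the 8 of 1.04 in Eµ-MTCP1 and 0.40 in Eµ-TCL1 mice. Their summed level was 806, 467 and 1605 CPM in Eµ-MTCP1 mice, whereas Eµ-TCL1 mice had 625, 916 and 651 CPM and wildtype mice 465 to 594 CPM. It was highest in Z2641 and B4437, the mice with the lowest medians of the 44 genes within their models. Hspa1b of the handling stress list rose in Eµ-TCL1 mice (3.85 ± 1.05), with 1445, 291 and 684 CPM against 9.79, 139 and 18.4 CPM in wildtype and 17.4, 22.9 and 3.14 CPM in Eµ-MTCP1 mice. Of the 10 handling stress genes, 9 had log2 fold changes above 0 in Eµ-TCL1 (median 1.13) and 3 in Eµ-MTCP1 mice (median -0.13), where edgeR called none, 3 had an unadjusted p under 0.05 and DESeq2 called Hsph1 and Junb lower. Their summed level was 3824, 9309 and 2471 CPM in Eµ-MTCP1 mice and 10150, 3985 and 9598 CPM in Eµ-TCL1 mice, in the order of mice given above, and 3991 to 5094 CPM in wildtype mice. It was thus low in Z2641 and B4437, as the median of the 44 genes was, and high in Z2606, B4376 and C1594, but below the wildtype range in Z2551, where that median was highest. Neither edgeR nor DESeq2 called a T and NK cell or an erythroid and platelet marker in the comparisons with wildtype, and edgeR gave an unadjusted p under 0.05 for 1 T and NK cell marker in each of them and for 0 of the others. The part of these genes in the results on the 44 genes was not tested.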

How the data were processed

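Libraries were assigned to groups by the strain and transgene labels of each sample, with 1 library per mouse. The 44 genes, their roles and the other gene lists were chosen with earlier results of these data known. Per the labels and the paper, B cell RNA was amplified with a SMARTer kit, Nextera XT and TruSeq stranded kits are both named, and the submitters' notes list CASAVA 1.8.2, HISAT2 2.0.6, featureCounts, Salmon 1.0.0, DESeq2 and build GRCm38.p4.

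Estimated counts and TPM per transcript were deposited by the authors for each library, made with Salmon on a reference of 57871 transcripts that includes human MTCP1 and TCL1. On this reference 92.2% of 57301 transcripts with an annotated coding length were exactly that long, so reads cover coding sequence, and members had 7.96% (Spcs3) to 181% (Sec61g) of the reads they had on the standard mouse reference (median 59.7%). Deposited effective lengths of the same files served only for offsets. Whole counts per gene were deposited by the authors from a genome alignment. For Ppib, Hsp90b1 and Sec61a1 these were 24.2, 68.6 and 70.2% of the standard Salmon reads, and for Sec61g 169%, so the levels of these 4 genes depend on the counting and are uncertain. The cause was not tested. The authors' normalized log2 values were used for the human transgenes only. Their tables also hold fold changes, p-values and statistics of their own comparisons, which were not used.

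Genes were assigned to transcripts through the identifiers of GENCODE M21, which left out 0.19 to 0.291% of the reads. Estimated counts were summed per gene, rounded, filtered with filterByExpr, scaled by TMM (factors 0.911 to 1.18) and tested with edgeR 4.0.16 in R 4.3.3 (glmQLFit, glmQLFTest, 1 coefficient per group, all 9 libraries, two-sided, Benjamini-Hochberg within each comparison). SE is the size of the log2 fold change divided by the square root of F. The test was also run on simulated data with known changes, the outcome of which is not given here. Values in every mouse are given for members with an adjusted p under 0.05 in any comparison and for Xbp1, Ern1, Eif2ak3, Atf4, Ddit3, Hspa5, Hsp90b1, Sec61a1, Derl3 and Mzb1. Values of Asns, Chac1, Trib3, Jchain, Phgdh, Prdm1 and Hspa1b in single mice, and Txndc5, Hsph1, Junb and (in Eµ-MTCP1 mice) Tent5c as calls of DESeq2, were added after they were seen. The same holds for Hspa5 in TPM. From other lists at most the 3 largest changes per direction past the threshold are named. Alternatives were DESeq2 1.42.0, DESeq2 size factors, library size alone, immunoglobulin segments left out, no filter, the authors' gene counts, the standard reference, length offsets and each mouse left out. All columns used could be mapped (0 unmapped). Protein sequences were not used here. Counting limits cover counting error only. One marker gene and the sums and counts of its list are not reported here.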

Additional observations from a re-analysis of the deposited data

How the results depend on the processing

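The 3 comparisons and 15 members were recomputed under 17 alternatives, 9 of which leave out 1 mouse each and then draw on 8 libraries. No paired analysis was possible because the replicate numbers of the groups are only names and pair no mice. Counts of members called in Eµ-MTCP1 against wildtype were 13 with DESeq2, 3 with library size alone and 2 to 9 with 1 mouse left out. They were 3 in Eµ-TCL1 and 0 in the direct comparison with 1 mouse left out. Of 765 alternative values of single members, 694 kept direction and side of the threshold, 32 lost and 3 gained a call, and 36 turned sign. None of the latter passed the test. In Eµ-MTCP1 against wildtype, Eif2ak3 turned to -0.10 with library size alone and -0.23 with length offsets, and Xbp1 to -0.0187 with library size alone (log2 fold changes throughout). In Eµ-TCL1 against wildtype, Ddit3 turned to 0.0134 and 0.0454, and Hspa5 to 0.0062 and 0.0088, with the authors' gene counts and the standard reference. Length offsets moved Hspa5 there from -0.03 to -0.29, and from 0.58 to 0.17 in Eµ-TCL1 against Eµ-MTCP1. Xbp1 turned to -0.30 with the authors' gene counts, -0.24 with the standard reference and -0.0025 with length offsets in Eµ-TCL1 against Eµ-MTCP1. With 1 mouse left out, values in Eµ-MTCP1 against wildtype ranged from -0.82 to 0.0915 for Ddit3, -0.38 to 0.46 for Eif2ak3 and -0.23 to 0.52 for Xbp1. In Eµ-TCL1 against wildtype the ranges were -0.37 to 0.17 for Ddit3, -0.73 to 0.0345 for Eif2ak3, -0.30 to 0.85 for Ern1, -0.13 to 0.0596 for Hspa5 and -0.52 to 0.62 for Xbp1. In the direct comparison they were -0.039 to 0.52 for Atf4, -0.17 to 0.72 for Ddit3, -0.0707 to 0.36 for Derl1, -0.59 to 0.25 for Derl3, -0.87 to 0.084 for Eif2ak3, -0.70 to 0.13 for Mzb1 and -0.72 to 0.44 for Xbp1. The causes were not tested. Mzb1 lost its call in Eµ-MTCP1 with library size alone and with the standard reference (edgeR adjusted p = 0.057 and 0.052). Depth limits Trib3 and Chac1 most, with 172 and 210 reads in all.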
